A study of Mus musculus with 6 samples.

Results

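This account follows 7 genes of the Fc receptor family in mouse bone marrow-derived macrophages: the IgG receptor genes Fcgr1, Fcgr2b, Fcgr3 and Fcgr4, the shared signalling chain Fcer1g, the neonatal Fc receptor gene Fcgrt, and Fcrls, an Fc receptor-like gene. The genes were taken from a fixed list of names, out of 57180 genes in the deposited table. That list was chosen with earlier results of these data known. The table's own gene names matched 6 of them, and Fcrls was matched by its identifier (ENSMUSG00000015852), which the table lists under the newer name Fcrl2. All 7 passed the filter on low counts. Cells came from wild-type (WT) mice of 6 to 8 weeks and were grown for 7 days in M-CSF at 20 ng/mL, a growth factor that turns marrow cells into macrophages. Both groups then received IL-4 at 20 ng/mL for 24 h, and 1 of them also received CGRP, a neuropeptide released by sensory nerves (its dose is not settled by the labels and is left out). There were 3 libraries a group, and no group without IL-4 is analysed here, so the response to IL-4 itself cannot be read from these data. The labels do not state that the replicates are separate animals or cultures, and every p-value therefore rests on a spread between libraries that may be technical only.

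Fc receptors let macrophages sense antibody. The activating receptors encoded by Fcgr1 (CD64, high affinity), Fcgr3 (CD16) and Fcgr4 pair with the gamma chain encoded by Fcer1g, whose immunoreceptor tyrosine-based activation motif (ITAM) is phosphorylated by Src family kinases and recruits Syk, which leads to phagocytosis and cytokine release. Fcgr2b is the inhibitory IgG receptor and carries an inhibitory motif (ITIM) that recruits the lipid phosphatase SHIP-1. The balance of activating to inhibitory receptors is known to set how strongly a macrophage responds to immune complexes. The neonatal Fc receptor is a dimer of the Fcgrt heavy chain with beta 2-microglobulin (B2m), works in endosomes and returns IgG and albumin to the cell surface. Fcrls is known as a gene of microglia and some macrophages.

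Totals ranged from 20088895 to 24060444 counts a library. The cells expressed the 7 macrophage markers checked (Adgre1, Csf1r, Cd68, Itgam, Lyz2, Mertk and Cd14), which summed to 12677 to 12881 CPM with IL-4 and 12953 to 13100 CPM with IL-4+CGRP (CPM, counts scaled to a library of 1000000 with TMM factors). In bulk RNA, fewer cells of a type and less RNA per cell cannot be told apart. IL-4+CGRP replicate 2 stood apart from its group: across genes, which are not independent replicates, Pearson's r was 0.9882 to IL-4 replicate 1, and 0.9876 and 0.9869 to the remaining libraries of its own group. Genes under 1000 bases shared this pattern. Their median deviation from the mean over all libraries was 0.22 in IL-4 replicate 1 and 0.20 in IL-4+CGRP replicate 2 on the log2 scale, against -0.15 and -0.18 in IL-4+CGRP replicates 1 and 3. IL-4 replicate 1 was still closer to its own group, with r of 0.9892 and 0.9905 to IL-4 replicates 2 and 3. Results that rest on IL-4+CGRP replicate 2 or IL-4 replicate 1, the doubted libraries, are given with and without them.

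Of the 7 genes, 3 rose with CGRP (Fcgr2b, Fcgr3 and Fcgrt) and 0 fell by the edgeR quasi-likelihood test, with p-values adjusted over 13260 tested genes and a threshold of 0.05. Among all tested genes 3.85% were called, 2.32% higher and 1.54% lower. The members were chosen with earlier results of these data known, so these shares describe the background and do not test the family. The same 3 genes were the members whose IL-4+CGRP libraries all lay above the IL-4 libraries, as 11.1% of tested genes did, and 0 members lay wholly below, as 9.92% of tested genes did. At an unadjusted p under 0.05, 0 members were lower, and DESeq2 and limma-voom also called 0 lower. The median log2 fold change of the 7 genes was 0.05, beside 0.00 over all tested genes.

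**Figure D1:**
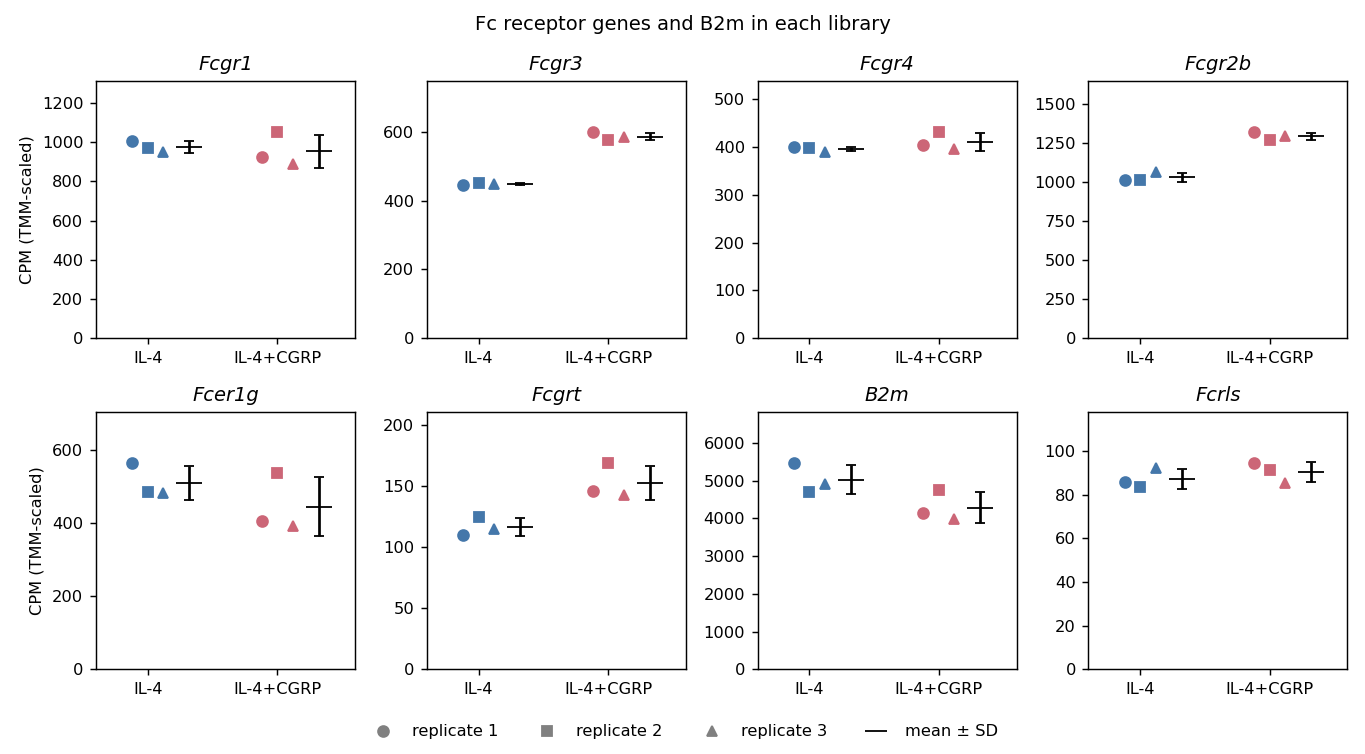
Level of each Fc receptor gene and of B2m in every library, in TMM-scaled CPM from 0, with 1 point a library and the mean ± SD of 3 libraries beside it. All 3 IL-4+CGRP libraries lie above all 3 IL-4 libraries for Fcgr3, Fcgr2b and Fcgrt, and IL-4+CGRP replicate 2 (square) lies apart from its group for Fcer1g.

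Among the activating alpha chains, Fcgr3 (ENSMUSG00000059498) measured 446, 451 and 449 CPM in IL-4 replicates 1 to 3 and 598, 576 and 583 CPM in IL-4+CGRP replicates 1 to 3. The groups did not overlap and each was tight, at 449 ± 2.89 and 586 ± 11.1 CPM (SD, n = 3). The rise was 1.31-fold (log2 0.38 ± 0.04, SE; edgeR adjusted p = 2.8e-04), and Fcgr3 ranked 45 by p among all tested genes. Over 17 alternatives the log2 fold change of Fcgr3 ranged from 0.36 to 0.41 and the call held in each.

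Fcgr1 (ENSMUSG00000015947) measured 1005, 971 and 948 CPM with IL-4 and 924, 1048 and 886 CPM with IL-4+CGRP. The groups overlapped, and IL-4+CGRP replicate 2 was the highest of the 6. Its log2 fold change was -0.03 ± 0.06 (SE) (edgeR adjusted p = 0.83), and its 95% interval ran from -0.16 to 0.10, or from 0.893 to 1.07 as a fold. Fcgr4 (ENSMUSG00000059089) measured 399, 397 and 390 CPM with IL-4 and 404, 430 and 395 CPM with IL-4+CGRP. These groups overlapped too, with a log2 fold change of 0.05 ± 0.05 (SE), an edgeR adjusted p = 0.65 and a 95% interval of -0.05 to 0.15. Within the activating receptors, then, Fcgr3 passed the test and neither Fcgr1 nor Fcgr4 did.

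Fcgr2b (ENSMUSG00000026656), the inhibitory receptor, measured 1013, 1012 and 1063 CPM with IL-4 and 1317, 1271 and 1292 CPM with IL-4+CGRP. Every IL-4+CGRP library was higher than every IL-4 library, with means of 1029 ± 29.4 and 1293 ± 23.2 CPM (SD, n = 3). It rose 1.26-fold (log2 0.33 ± 0.04, SE; edgeR adjusted p = 6.3e-04). The call held in all 17 alternatives, with log2 fold changes of 0.31 to 0.36.

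Fcer1g (ENSMUSG00000058715), the gamma chain, was lower in the mean with CGRP and did not pass the test with all libraries. It measured 565, 485 and 483 CPM with IL-4, and 406, 539 and 393 CPM with IL-4+CGRP. IL-4+CGRP replicates 1 and 3 were below every IL-4 library, while replicate 2 was above 2 of the 3. The log2 fold change was -0.20 ± 0.15 (SE), with an edgeR adjusted p = 0.60 and a 95% interval of -0.57 to 0.17. Without IL-4+CGRP replicate 2 it was -0.35, and Fcer1g was called lower (edgeR adjusted p = 0.013). It was also called lower at -0.28 when this library and IL-4 replicate 1 were both removed, which left 2 libraries a group (edgeR adjusted p = 1.3e-06). After the trend with gene length was taken out of each library, Fcer1g was called lower at -0.15 (edgeR adjusted p = 0.032). The last 2 fits were chosen after seeing the data. In the order given, the fits called 956, 1187 and 529 of all genes lower, against 204 without these changes.

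The Fcer1g transcript is short, at 683 bases in the deposited table. Its deviation from its mean over the 6 libraries was 0.25 in IL-4 replicate 1 and 0.18 in IL-4+CGRP replicate 2, and -0.22 and -0.27 in IL-4+CGRP replicates 1 and 3. Genes under 1000 bases deviated in the same direction in each of these 4 libraries, and their median log2 fold change was -0.11 over 1126 genes. B2m, of 860 bases, deviated by 0.24 in IL-4 replicate 1, by 0.03 in IL-4+CGRP replicate 2 and by -0.16 and -0.22 in IL-4+CGRP replicates 1 and 3. With the trend removed, Fcer1g and B2m were both called lower, beside 529 of all genes called lower in that fit. Fcgr2b, Fcgr3 and Fcgrt are longer (1347 to 1602 bases), and their log2 fold changes with the trend removed were 0.34, 0.41 and 0.39.

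**Figure D2:**
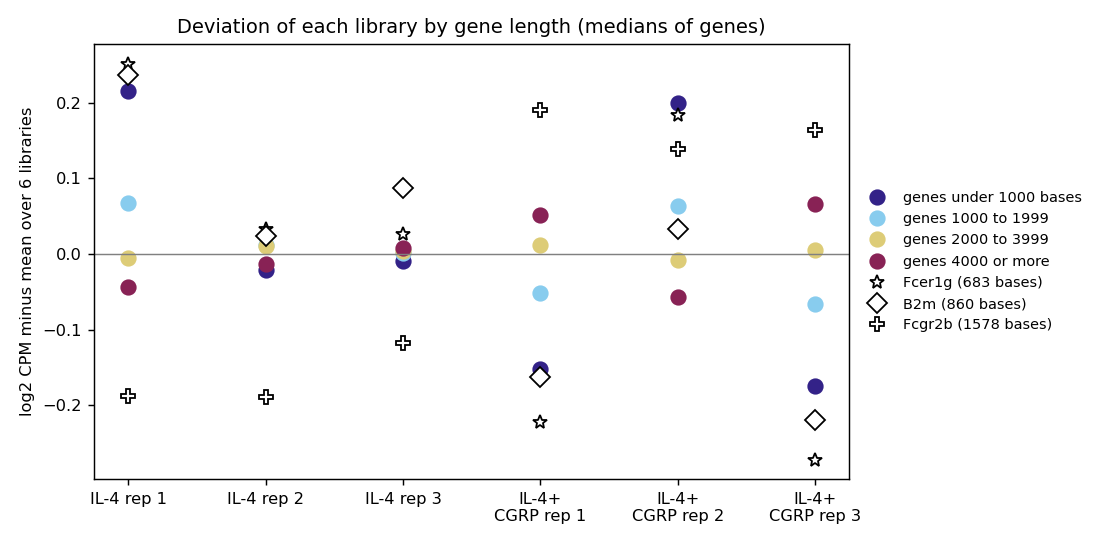
Deviation of each library from the mean over 6 libraries, in log2 CPM, for the median gene of 4 length classes (filled circles) and for Fcer1g, B2m and Fcgr2b (open symbols). Fcer1g lies near the genes under 1000 bases, at 0.25 and 0.18 in IL-4 replicate 1 and IL-4+CGRP replicate 2, whereas Fcgr2b is below 0 in all 3 IL-4 libraries and above 0 in all 3 IL-4+CGRP libraries.

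The neonatal Fc receptor heavy chain, Fcgrt (ENSMUSG00000003420), measured 110.2, 124 and 115 CPM with IL-4 and 146, 169 and 142 CPM with IL-4+CGRP. The groups did not overlap, although IL-4+CGRP replicate 2 was well above the other 2 libraries of its group. Fcgrt rose 1.31-fold (log2 0.39 ± 0.07, SE; edgeR adjusted p = 0.011). Its call ended when IL-4 replicate 1 (edgeR adjusted p = 0.069) or IL-4 replicate 3 (edgeR adjusted p = 0.10) was left out, the alternatives spanning adjusted p-values from 2.8e-08 to 0.10. Without IL-4+CGRP replicate 2 the log2 fold change was 0.31 (edgeR adjusted p = 9.2e-04).

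B2m, the light chain that Fcgrt shares with MHC class I, measured 5461, 4713 and 4924 CPM with IL-4 and 4140, 4743 and 3980 CPM with IL-4+CGRP. The groups overlapped through IL-4+CGRP replicate 2. The log2 fold change of B2m was -0.23 ± 0.08 (SE) with an edgeR adjusted p = 0.23. B2m was called lower at -0.31 when IL-4+CGRP replicate 2 was left out (edgeR adjusted p = 0.016). It was also called lower with both doubted libraries left out, with no count filter and with the length trend removed. In that order, these fits called 956, 1187, 434 and 529 of all genes lower, against 204 without these changes.

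Fcrls (ENSMUSG00000015852) measured 86.1, 83.4 and 92.5 CPM with IL-4 and 94.5, 91.3 and 85.3 CPM with IL-4+CGRP. The groups overlapped, with a log2 fold change of 0.05 ± 0.06 (SE), an edgeR adjusted p = 0.74 and a 95% interval of -0.08 to 0.18. It was the lowest of the 7 genes in counts, and its smallest count, 1701 in IL-4 replicate 1, has a counting error of 2.42%.

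**Figure D3:**
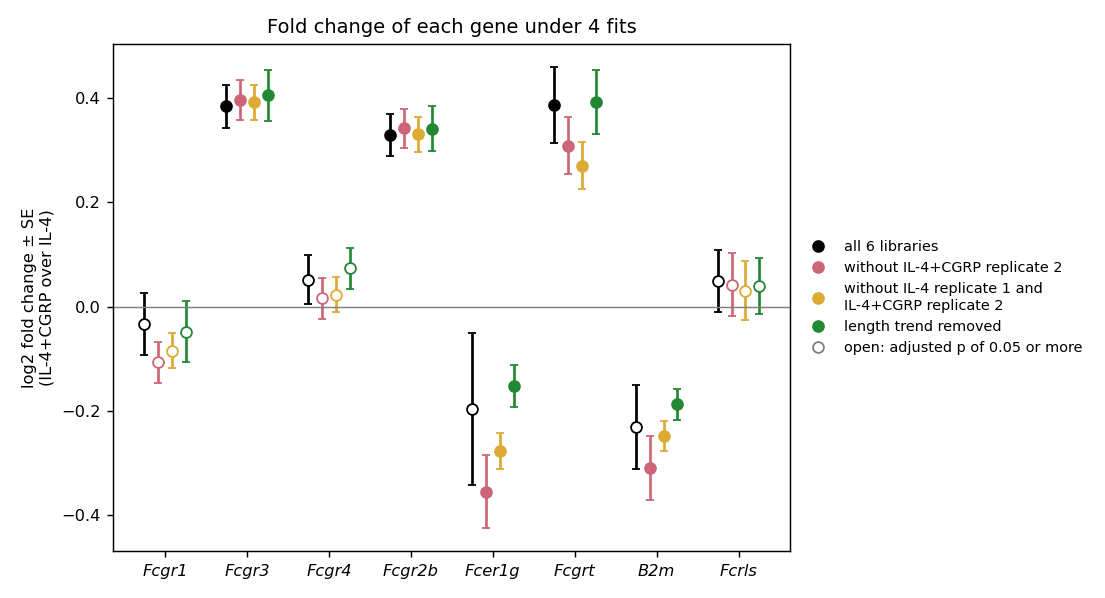
Log2 fold change ± SE of IL-4+CGRP over IL-4 for each gene with all libraries, without the doubted libraries, and with the gene length trend removed; filled points have an edgeR adjusted p under 0.05. Fcgr3, Fcgr2b and Fcgrt are filled above 0 in all 4 fits. Fcer1g and B2m become filled below 0 in the 3 fits other than the first, which called 529 to 1187 of all genes lower, against 204 in the first. The fits without IL-4 replicate 1 alone or IL-4 replicate 3 alone, which ended the Fcgrt call, are not shown.

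Compared per length of the deposited gene model, Fcer1g stood highest with IL-4, at 748 ± 68.1 CPM per kilobase (SD, n = 3). It was followed by Fcgr2b at 652 ± 18.6, Fcgr1 at 376 ± 11.2, Fcgr3 at 333 ± 2.15 and Fcgr4 at 315 ± 3.89 CPM per kilobase. Fcgrt and Fcrls were far lower, at 72.7 ± 4.48 and 38.4 ± 2.06 CPM per kilobase. With IL-4+CGRP the order changed in 2 places: Fcgr2b, at 819.7 ± 14.7, stood above Fcer1g at 653 ± 118, and Fcgr3, at 435 ± 8.22, stood above Fcgr1 at 368 ± 32.8 CPM per kilobase. No neighbours in either order overlapped between libraries of a group. Removing the length trend was not applied to these levels.

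As a share of the 4 IgG receptor alpha chains per length, Fcgr2b made up 38.9% ± 0.980 with IL-4 and 42.1% ± 1.22 with IL-4+CGRP, and Fcgr3 19.9% ± 0.208 and 22.3% ± 0.628 (SD, n = 3). Fcgr1 made up 22.5% ± 0.695 and 18.9% ± 1.37, and Fcgr4 18.8% ± 0.290 and 16.7% ± 0.475. The libraries of the 2 groups did not overlap in any of these shares, although shares of a whole move together by construction. The 4 alpha chains summed to 1676 ± 8.24 CPM per kilobase with IL-4 and 1949 ± 36.3 with IL-4+CGRP (SD, n = 3).

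Ratios within a library do not depend on how libraries are scaled, and 5 were fixed for testing. They can still carry the trend with gene length, which was not removed from them. Fcer1g and B2m, at 683 and 860 bases, are shorter than the genes they are compared with. Fcgr1 over Fcgr2b was 0.993, 0.960 and 0.891 with IL-4 and 0.702, 0.825 and 0.685 with IL-4+CGRP in counts, 1.29-fold lower in the mean. Fcgr4 over Fcgr2b was 0.394, 0.392 and 0.366 against 0.307, 0.338 and 0.305, lower by 1.21-fold. By contrast, Fcgr3 over Fcgr2b was 0.440, 0.446 and 0.422 against 0.454, 0.453 and 0.451, a difference of only 0.05 on the log2 scale (1.04-fold higher). Fcgr1 and Fcgr4 were thus lower relative to the inhibitory receptor in every IL-4+CGRP library, and Fcgr3 was not. These ratios share Fcgr2b as denominator and are not separate results. Fcgr2b itself rose by log2 0.33, whereas the log2 fold changes of Fcgr1 and Fcgr4 were -0.03 and 0.05. Fcgr3 shares coding sequence with Fcgr2b, as described below, and Fcgr1 and Fcgr4 do not at that window size. The part of reads that match both genes in the Fcgr3 to Fcgr2b ratio was not tested.

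Fcer1g over the sum of Fcgr1, Fcgr3 and Fcgr4, the alpha chains that pair with it, was 0.305, 0.267 and 0.270 with IL-4 and 0.211, 0.262 and 0.211 with IL-4+CGRP. This ratio was 1.24-fold lower, with IL-4+CGRP replicate 2 just under the IL-4 libraries. Fcgrt over B2m was 0.0202, 0.0264 and 0.0234 with IL-4 and 0.0353, 0.0355 and 0.0358 with IL-4+CGRP, 1.53-fold higher in the mean with almost no spread among the IL-4+CGRP libraries. For all 5 ratios the groups did not overlap. Among single tested genes 11.1% lay wholly higher with IL-4+CGRP and 9.92% wholly lower. Those are shares of genes and not of ratios, for which no share over all pairs of genes was computed. The exact permutation test (two-sided) gave p = 0.1 before and after adjustment over the 5 ratios, the smallest p that 3 libraries against 3 allow. None of the ratios can therefore pass a threshold of 0.05 in this design.

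**Figure D4:**
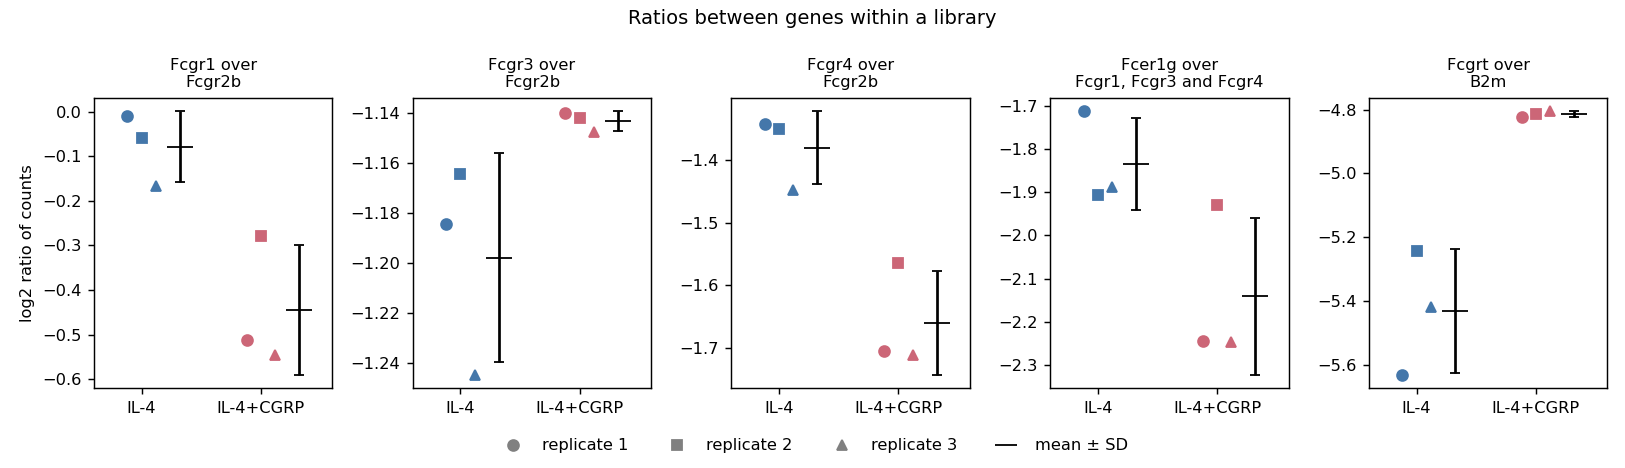
Log2 ratio of counts between genes of 1 library for the 5 ratios, with 1 point a library and the mean ± SD of 3 libraries; each panel has its own axis, which does not start at 0. Both groups are apart in each panel, but the Fcgr3 to Fcgr2b panel spans a difference of only 0.05 and the Fcgrt to B2m panel one of 0.62.

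Fcgr2b and Fcgr3 have near-identical stretches, which matters because reads that match both genes can be split between them. In GENCODE vM21 coding sequences, 22.1% of the 50-base windows of Fcgr3 also occur in Fcgr2b and 17.1% of those of Fcgr2b in Fcgr3, with a longest shared run of 129 bases (bases 278 to 406 of the Fcgr2b coding sequence). No window of any other pair of the 7 genes was shared. The shared run, shown because reads wholly inside it cannot be assigned by sequence, is the following.
Fcgr2b and Fcgr3 shared coding run: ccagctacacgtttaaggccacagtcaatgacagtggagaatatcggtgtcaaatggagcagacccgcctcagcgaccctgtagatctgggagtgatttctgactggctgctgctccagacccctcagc
Fcgr2b and Fcgr3 were also the 2 members whose deposited values were not whole numbers, in 6 of 6 libraries each, while the other 5 members had whole values throughout. How much of either rise, or of the ratio between the 2 genes, is shared through such reads was not tested.

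Fcgr2b, Fcgr4, Fcgr3 and Fcer1g lie near each other on chromosome 1, while Fcgr1 and Fcrls are on chromosome 3 and Fcgrt on chromosome 7 (RefSeq, GRCm38.p6). In the RefSeq order of protein-coding genes, 7 others lie between Fcgr3 and Fcer1g, and 4 of these were tested. Their log2 fold changes ran from -0.38 ± 0.13 (SE) for Pcp4l1 to 0.30 ± 0.36 (SE) for Cfap126. Together with 5 protein-coding genes on each side, a set chosen after seeing the data, 11 neighbours were tested. Of these 0 were called by edgeR, DESeq2 or limma-voom, beside 3.85% of all tested genes called by edgeR. At an unadjusted p under 0.05, 1 neighbour was higher and 3 were lower. When IL-4+CGRP replicate 2 was left out, edgeR called 3 neighbours lower, beside 956 of all genes. Fcgr4, which lies between Fcgr2b and Fcgr3, was the receptor gene of that trio that did not pass the test.

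The 120 bases before the RefSeq start sites are shown for the 3 genes that rose and for the IgG receptors Fcgr1 and Fcgr4 that did not pass, to let the promoters of the family be compared (GRCm38.p6, each on its gene's strand). Capitals mark matches on either strand to GAGGAA (the core bound by PU.1, the master regulator of macrophages), to TTCNNNGAA (the interferon gamma-activated site, GAS) or to TGACG (the core of the cAMP response element). All 7 genes matched the RefSeq promoter table.
Fcgr3, minus strand, chr1:171059404-171059523: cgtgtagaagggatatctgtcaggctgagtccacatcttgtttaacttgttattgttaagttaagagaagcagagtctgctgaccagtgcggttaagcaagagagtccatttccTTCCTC
Fcgr4, plus strand, chr1:171018806-171018925: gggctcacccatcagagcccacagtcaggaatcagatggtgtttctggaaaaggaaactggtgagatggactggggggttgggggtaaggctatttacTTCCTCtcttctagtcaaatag
Fcgr1, minus strand, chr3:96293970-96294089: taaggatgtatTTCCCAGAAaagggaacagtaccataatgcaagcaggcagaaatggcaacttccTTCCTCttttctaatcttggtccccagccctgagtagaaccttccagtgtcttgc
Fcgr2b, minus strand, chr1:170976072-170976191: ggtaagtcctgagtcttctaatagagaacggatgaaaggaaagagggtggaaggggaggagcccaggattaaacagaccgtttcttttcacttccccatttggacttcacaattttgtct
Fcgrt, minus strand, chr7:45103823-45103942: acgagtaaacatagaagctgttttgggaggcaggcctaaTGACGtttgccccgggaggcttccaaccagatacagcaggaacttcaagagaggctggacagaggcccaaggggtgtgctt
Over 250 bases before the start site, the 3 activating receptors Fcgr1, Fcgr3 and Fcgr4 each held 1 match to GAGGAA, at -55 to -50, -6 to -1 and -22 to -17 from the start site, in the orientation TTCCTC (for Fcgr3, at -15 to -10 from its other RefSeq start site), and Fcrls held 1 as well. Fcgr2b, Fcer1g and Fcgrt held none, and 23.3% of 32851 promoters in the table hold this motif. The GAS match was in Fcgr1 alone of the 7, with 7.02% of promoters holding it, and the TGACG match in Fcgrt alone, with 17.8% of promoters holding it. No member held the full element TGACGTCA (1.55% of promoters) or the STAT6 motif (5.85%). The genes that rose thus shared none of these motifs among all 3. A match is a description of letters, not of a bound site.

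By the root mean square difference between centred log2 CPM profiles over the 6 libraries, the closest to Fcgr3 of 7177 genes (average log2 CPM 4 or more) were Gbp5, Emilin2 and Rcbtb2, at 0.018, 0.026 and 0.028. Those closest to Fcgr2b were F10, Pmp22 and Tcp11l1, at 0.031, 0.034 and 0.036. Fcgr3 came 4th in the order from Fcgr2b and Fcgr2b 6th in that from Fcgr3, both at 0.037. The log2 fold changes of these 6 genes ran from 0.29 for Pmp22 to 0.41 for Rcbtb2, a direction and size that the choice by likeness to 2 genes that rose fixes. The calls of F10 (without IL-4 replicate 1), Pmp22 (if IL-4 replicate 2, IL-4 replicate 3 or IL-4+CGRP replicate 1 was left out) and Tcp11l1 (without any library except IL-4+CGRP replicate 2, and under DESeq2) ended in other fits.

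Among the other Fc and Fc-like receptors, Trim21, a cytosolic receptor for antibody named here after its values were seen, was the most abundant, at 75.1 ± 2.36 CPM with IL-4 and 71.8 ± 1.97 CPM with IL-4+CGRP (SD, n = 3; edgeR adjusted p = 0.61). The other 7 tested genes had means of 0.360 to 6.75 CPM with IL-4. Of 12 listed genes 8 were tested and 0 were called by edgeR, DESeq2 or limma-voom, with 1 higher and 2 lower at an unadjusted p under 0.05. Among all tested genes edgeR called 3.85%. Fcmr, the IgM receptor, measured 4.92 ± 0.298 and 3.51 ± 0.0716 CPM (SD, n = 3; log2 fold change -0.49 ± 0.14, SE; edgeR adjusted p = 0.083). Fcrlb, an intracellular Fc receptor-like protein, was at 0.360 ± 0.180 CPM with IL-4 and 0.756 ± 0.257 CPM with IL-4+CGRP (SD, n = 3; edgeR adjusted p = 0.29). Fcer1a, the IgE-binding chain that pairs with Fcer1g in mast cells, had 0 to 4 counts a library and is named here after its values were seen. The list's median log2 fold change was -0.37, beside 0.00 over all tested genes.

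Among 30 tested genes of activating ITAM signalling 1 was called higher and 2 lower, with a median log2 fold change of 0.01. Pik3r1, the regulatory subunit of phosphoinositide 3-kinase, rose 1.19-fold (edgeR adjusted p = 0.035), while the adaptors Blnk and Lat2 fell 1.22-fold (edgeR adjusted p = 0.020) and 1.17-fold (edgeR adjusted p = 0.040). The Pik3r1 and Lat2 calls ended without any 1 library except IL-4+CGRP replicate 2 and when dispersions were fitted without robust weights; the Lat2 call also ended with upper quartile factors or library totals, and the Blnk call if either IL-4 replicate 2 or 3 was left out. Of 14 inhibitory signalling genes, 1 was called lower and 0 higher (3 higher at an unadjusted p under 0.05, and 0 by DESeq2 and limma-voom). That gene was Ptpn22, a phosphatase that restrains Src family kinases, which fell 1.32-fold (edgeR adjusted p = 0.018), a call that ended if IL-4 replicate 2, IL-4 replicate 3 or IL-4+CGRP replicate 3 was left out. Without IL-4+CGRP replicate 2, 4 inhibitory genes were higher and 3 lower, beside 919 and 956 of all genes.

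A list of other signalling adaptors and myeloid receptors, not all of which pair with Fcer1g, held 12 tested genes. Of these 2 rose and 0 fell (1 lower at an unadjusted p under 0.05, and 0 by DESeq2 and limma-voom). The 2 that rose were C-type lectins. Clec4d measured 49.9 ± 5.64 and 86.0 ± 8.55 CPM (SD, n = 3), and Clec4n (Dectin-2) measured 5.28 ± 0.151 and 13.7 ± 2.29 CPM (SD, n = 3). Clec4d rose 1.72-fold (edgeR adjusted p = 0.0013) and Clec4n 2.59-fold (edgeR adjusted p = 1.2e-04), and both calls held in all 17 alternatives. Both lectins are known to signal through the gamma chain, as do Fcgr1, Fcgr3 and Fcgr4. Of these 3 receptors Fcgr3 alone passed the test, and Fcer1g itself was not called with all libraries. The list's median log2 fold change was 0.11, the highest of the 7 lists.

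In the actin machinery of phagocytosis 2 of 31 tested genes fell and 0 rose (0 higher at an unadjusted p under 0.05, and 0 by DESeq2 and limma-voom). Actr3, a subunit of the Arp2/3 complex that branches actin, measured 883 ± 14.3 CPM with IL-4 and 748 ± 21.0 CPM with IL-4+CGRP (SD, n = 3), a 1.18-fold fall (edgeR adjusted p = 0.0062). The myosin Myo1f fell 1.15-fold (edgeR adjusted p = 0.019). Both calls ended if either IL-4 replicate 2 or 3 was left out, and that of Myo1f also if IL-4+CGRP replicate 1 was left out or totals alone were used for scaling. In the fit without IL-4+CGRP replicate 2, 11 genes of this list were called lower, and 8 with the length trend removed. Those fits called 956 and 529 of all genes lower, against 204 without these changes.

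Among 21 tested genes of endosomal sorting, where the neonatal receptor recycles its cargo, 2 rose and 1 fell. Rab11fip5, an effector of recycling endosomes, measured 302 ± 6.11 and 363 ± 3.43 CPM (SD, n = 3), a 1.20-fold rise (edgeR adjusted p = 0.0047). Ehd1, which acts in endocytic recycling, rose 1.24-fold (edgeR adjusted p = 0.022). Cd74, the invariant chain of MHC class II, fell 1.29-fold (edgeR adjusted p = 1.6e-04). The Rab11fip5 call ended without IL-4 replicate 2 (edgeR adjusted p = 0.051) and the Ehd1 call if either IL-4 replicate 2 or 3 was left out. Without IL-4+CGRP replicate 2, 3 genes of this list were higher and 3 lower, beside 919 and 956 of all genes.

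Of 20 regulators of Fc receptor expression, 4 rose and 0 fell (1 lower at an unadjusted p under 0.05, and 0 by DESeq2 and limma-voom). Il4ra, the IL-4 receptor alpha chain, rose 1.67-fold (edgeR adjusted p = 5.4e-06) and its call held in every alternative. Tfec, a transcription factor of macrophages, rose 1.28-fold (edgeR adjusted p = 0.016), C5ar1, the C5a receptor, 1.19-fold (edgeR adjusted p = 0.020) and Stat3 1.18-fold (edgeR adjusted p = 0.026). The Tfec call ended if IL-4 replicate 2, IL-4 replicate 3 or IL-4+CGRP replicate 1 was left out, and the C5ar1 and Stat3 calls without any 1 library except IL-4+CGRP replicate 2. All 7 lists, that of the other Fc receptors included, are read only against the calls among all genes. With all libraries these were 2.32% higher and 1.54% lower. The lists, like the members, were chosen with earlier results of these data known.

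**Figure D5:**
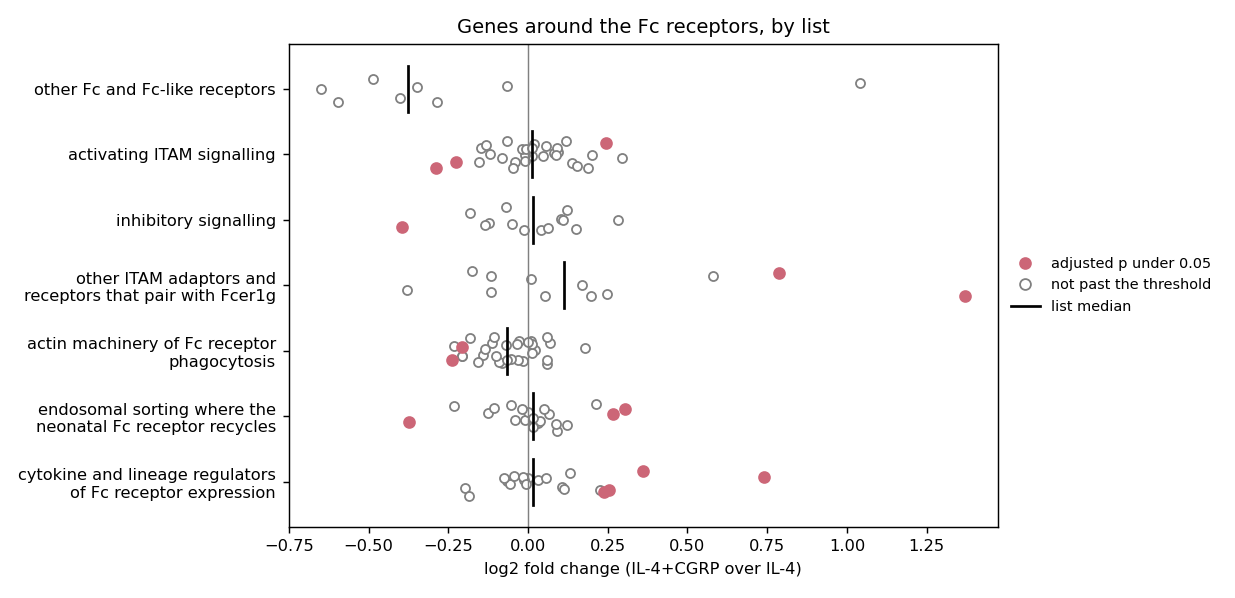
Log2 fold change of IL-4+CGRP over IL-4 for each tested gene of 7 lists around the Fc receptors, with 1 point a gene, filled where the edgeR adjusted p is under 0.05, and the list median as a bar. Most genes are open points near 0, and the points farthest right among those filled are Clec4n, Clec4d and Il4ra.

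Markers of other cell types that carry Fc receptors were low in both groups. B cell markers, 6 genes, summed to 32.2 to 34.9 CPM with IL-4 and 30.6 to 33.1 CPM with IL-4+CGRP, and 8 neutrophil markers to 37.1 to 45.9 and 34.3 to 45.1 CPM, with Ly6g at 0 in every library. The 7 mast cell and basophil markers, with Mcpt4 at 0 in every library, summed to 3.57 to 4.0 and 2.93 to 3.38 CPM, and the 6 NK cell markers to 20.6 to 21.4 and 17.9 to 19.9 CPM. T cell markers summed to 7.13 to 8.68 and 7.35 to 7.57 CPM, monocyte markers to 122 to 139 and 122 to 138 CPM, fibroblast markers to 41.3 to 45.0 and 45.1 to 52.2 CPM, and endothelial markers to 39.1 to 45.2 and 47.2 to 53.6 CPM. Dendritic cell markers summed to 170.1 to 178 and 88.9 to 97.2 CPM, mostly through Itgax.

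Of the 7 macrophage markers Itgam (CD11b) and Cd14 were called higher, and 0 lower by edgeR, DESeq2 and limma-voom (2 lower at an unadjusted p under 0.05). Among all tested genes edgeR called 2.32% higher and 1.54% lower. Leaving out IL-4+CGRP replicate 2 gave 3 macrophage markers higher and 1 lower, and removing the length trend 2 higher and 1 lower. Those fits called 919 and 395 of all genes higher, and 956 and 529 lower. Of 42 tested markers of other cell types Itgax, Siglech and Ccr2 were called lower and Ccr7 and Kdr higher. The calls of Siglech (if IL-4 replicate 2, IL-4 replicate 3 or IL-4+CGRP replicate 1 was left out), Ccr2 (any IL-4 library or IL-4+CGRP replicate 1 left out), Ccr7 (without IL-4 replicate 2) and Kdr (without any library except IL-4+CGRP replicate 2, under DESeq2 and when dispersions were fitted without robust weights) ended in other fits. The part of these cell types in the Fc receptor values was not tested.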

How the data were processed

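RNA-seq covered 6 libraries of mouse bone marrow-derived macrophages, 3 a group. The authors deposited estimated counts per gene with no scaling, made with fastp, HISAT2 and StringTie on GRCm39, per the submitters' processing notes. The sources used here do not give tool versions, the annotation, the counting step or the strand setting, and reads of overlapping or antisense genes may be mixed. Values were rounded, since 23.3% to 26.6% of those above 0 were fractional (tolerance 1e-06). The deposited gene length, in bases, was used for levels per kilobase and is of unstated origin. The authors' group means, also in the table, were not used; 0 columns of per-sample values were unassigned and 525 genes had no name.

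Genes were filtered with filterByExpr by group (13260 kept, 99.91% of counts), scaled by TMM (0.984 to 1.016) and tested two-sided in R 4.3.3 with the robust quasi-likelihood test of edgeR 4.0.16. The model held the group alone, and p-values were adjusted by Benjamini-Hochberg. The common biological coefficient of variation was 8.62%. Each SE is the absolute log2 change over the root of its F statistic, and 95% intervals use the fit's degrees of freedom. Ratios were tested by exact permutation (scipy 1.17.1). The scripts were tested on simulated data. Genes named are the members and B2m, up to 6 called genes a list (or the 2 smallest p-values where none was called), and the 3 genes most alike to Fcgr2b and Fcgr3; neighbours and the named cell type markers were added after their values were seen. The members and lists were chosen with earlier results of these data known.

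Other settings were tried 1 at a time: size factors of DESeq2, upper quartile or plain totals for scaling, a filter at a mean of 50 counts or none, DESeq2 1.42.0 or limma-voom (limma 3.58.1) as the test, dispersions without robust weights, a block for the replicate number, and each library left out. The fit without IL-4 replicate 1 and IL-4+CGRP replicate 2, and that with a loess trend of each library on gene length removed, were chosen after seeing the data. Promoters are from RefSeq (GRCm38.p6) and coding sequences from GENCODE vM21, another build than the authors', so they carry no measured value.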

Additional observations from a re-analysis of the deposited data

How the results depend on the processing

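Of the Fc receptor genes, 3 were called higher in all alternatives except without IL-4 replicate 1 or 3 (2, Fcgrt being lost), and 0 lower except Fcer1g, 1 gene, without IL-4+CGRP replicate 2, without both it and IL-4 replicate 1, and with the length trend removed. Leaving out each library gave 2 to 3 higher and 0 to 1 lower. Fcgr1 ranged from -0.11 to 0.01 (log2) when libraries were left out, changing sign without IL-4+CGRP replicate 3 (0.012, edgeR adjusted p = 0.98). The 5 ratios kept their direction in each alternative run, none of which removed the length trend from them.

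Over all genes, against 307 higher and 204 lower, leaving out 1 library gave 140 to 919 higher and 80 to 956 lower, the highest of each without IL-4+CGRP replicate 2. With no count filter 584 were higher and 434 lower, without both doubted libraries 1065 and 1187, and with the length trend removed 529 were lower. The split between higher and lower moved with scaling, to 354 and 143 with library totals alone. The lists' counts over the alternatives are given as higher, then lower. They ranged from 0 to 4 and 0 to 3 for activating signalling, and 0 to 5 and 0 to 3 for inhibitory signalling. They were 2 to 4 and 0 to 2 for other adaptors and myeloid receptors, and 0 and 0 to 11 for actin. For endosomal sorting they were 0 to 3 and 1 to 3, and for regulators 1 to 5 and 0 to 2. The causes were not tested.

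The labels do not say whether same-numbered libraries share an animal or a day. Same-numbered deviations from the group means correlated at -0.19, -0.18 and 0.13, which cannot decide this with 3 libraries a group. With the number as a replicate block 176 genes were higher and 86 lower; Fcgr2b (edgeR adjusted p = 0.017), Fcgr3 (0.012) and Fcgrt (0.022) stayed called. The block ended the calls of 13 named genes, at edgeR adjusted p = 0.054 to 0.16: Actr3, Myo1f, Blnk, Lat2, Pik3r1, Ptpn22, Ehd1, C5ar1, Stat3, Pmp22, Tcp11l1, Ccr2 and Kdr. The ratios' exact sign-flip p was 0.25, the smallest 3 pairs allow.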
